A study of Mus musculus with 18 samples.

Results

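The regions described here are H3K27ac peaks of wild-type (WT) mouse hippocampus that had no counterpart in hippocampus with a conditional knockout (cKO) of Arid1a. A WT peak was called lost when it shared no base with any peak of the cKO H3K27ac list, and kept when it shared at least 1. The members were therefore chosen by the 2 called H3K27ac lists themselves. The rule gave 1931 lost peaks of 13006 WT peaks (14.8%, Wilson 95% interval 14.2% to 15.5%), and 11075 kept peaks. Of the lost peaks 721 overlapped a WT H3K4me3 peak and 1210 did not. All animals were C57BL/6, the tissue was hippocampus, and the genotypes compared were Arid1a cKO and WT. At 3 weeks each genotype gave 1 chromatin immunoprecipitation (ChIP-seq) library for H3K27ac, H3K4me3, H3K27me3 and input. RNA was sequenced from 2 cKO and 2 WT libraries at 3 weeks (P21) and from 3 cKO and 3 WT libraries at embryonic day 16.5 (E16.5). The labels give neither the Cre driver nor the cells in which Arid1a was deleted, nor whether animals were pooled.

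Arid1a encodes a subunit of the BAF (SWI/SNF) complex, which moves nucleosomes with energy from ATP and keeps enhancers and promoters accessible. H3K27ac, acetylation of lysine 27 of histone H3, marks active promoters and enhancers. H3K4me3 marks promoters, so an H3K27ac peak with H3K4me3 is usually promoter-like and one without it is usually enhancer-like. H3K27me3 is laid on the same lysine by Polycomb repressive complex 2 and marks silenced genes, and a lysine cannot carry acetylation and methylation at once. The hippocampus holds pyramidal neurons of the CA fields, granule neurons of the dentate gyrus, interneurons and glia.

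The sequences that carry the lost marks can be seen at 5 genes whose promoter lay under a lost peak and not under a kept one. Each line gives the 250 bases before an annotated start (RefSeq, GRCm38.p6), 5′ to 3′ on the gene's strand, and the bases inside the lost peak are in capitals. Tunar is a long noncoding RNA gene linked to neural differentiation, and it is shown because both of its starts lay under lost peaks that carried H3K4me3 and H3K27me3 peaks in cKO. Its first start (plus strand, chr12:105336344-105336593) lay wholly within a lost peak, and its second start (plus strand, chr12:105336743-105336992) had 170 of the 250 bases inside another.

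Tunar, first start: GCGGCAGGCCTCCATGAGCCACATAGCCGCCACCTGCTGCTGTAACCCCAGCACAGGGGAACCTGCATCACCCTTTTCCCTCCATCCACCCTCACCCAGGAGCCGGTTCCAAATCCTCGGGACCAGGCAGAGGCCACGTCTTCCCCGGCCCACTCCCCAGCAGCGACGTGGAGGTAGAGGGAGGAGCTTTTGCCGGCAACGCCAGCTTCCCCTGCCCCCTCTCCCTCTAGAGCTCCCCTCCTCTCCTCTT
Tunar, second start: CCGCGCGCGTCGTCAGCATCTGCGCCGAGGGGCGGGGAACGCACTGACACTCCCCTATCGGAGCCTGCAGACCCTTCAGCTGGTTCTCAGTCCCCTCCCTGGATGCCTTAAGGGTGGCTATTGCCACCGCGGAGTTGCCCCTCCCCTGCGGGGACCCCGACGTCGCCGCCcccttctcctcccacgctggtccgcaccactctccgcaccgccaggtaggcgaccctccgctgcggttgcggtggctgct

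Minpp1 encodes a phosphatase of inositol polyphosphates and is shown as a strong lost peak that covered a whole promoter (plus strand, chr19:32485519-32485768). Zkscan17, a zinc finger gene, is shown because its RNA was higher in cKO (minus strand, chr11:59506641-59506890, 114 bases inside the lost peak). Cabp7, a neuronal calcium-binding protein gene, had H3K27me3 called at its lost promoter peak in cKO (minus strand, chr11:4747180-4747429, 209 bases inside). Actl6b encodes the neuronal actin-like subunit of BAF, the complex that contains ARID1A (plus strand, chr5:137553296-137553545, 152 bases inside).

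Minpp1: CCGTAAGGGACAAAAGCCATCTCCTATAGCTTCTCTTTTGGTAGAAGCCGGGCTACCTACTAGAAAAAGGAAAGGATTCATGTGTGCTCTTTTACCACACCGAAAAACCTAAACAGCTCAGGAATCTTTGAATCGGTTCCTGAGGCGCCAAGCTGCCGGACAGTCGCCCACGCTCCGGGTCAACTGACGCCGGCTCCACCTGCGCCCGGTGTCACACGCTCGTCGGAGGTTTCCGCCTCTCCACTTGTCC
Zkscan17: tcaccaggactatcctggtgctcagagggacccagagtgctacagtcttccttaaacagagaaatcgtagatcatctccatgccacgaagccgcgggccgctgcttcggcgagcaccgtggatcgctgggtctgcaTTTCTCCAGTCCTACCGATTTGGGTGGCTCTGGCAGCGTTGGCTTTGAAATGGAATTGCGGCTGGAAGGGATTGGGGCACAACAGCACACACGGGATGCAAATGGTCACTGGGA
Cabp7: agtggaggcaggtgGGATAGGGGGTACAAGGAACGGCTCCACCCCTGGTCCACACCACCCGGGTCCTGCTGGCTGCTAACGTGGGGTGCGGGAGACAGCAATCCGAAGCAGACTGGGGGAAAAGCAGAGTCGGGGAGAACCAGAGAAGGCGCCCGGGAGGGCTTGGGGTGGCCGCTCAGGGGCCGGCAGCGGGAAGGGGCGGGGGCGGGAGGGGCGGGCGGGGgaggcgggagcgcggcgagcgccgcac
Actl6b: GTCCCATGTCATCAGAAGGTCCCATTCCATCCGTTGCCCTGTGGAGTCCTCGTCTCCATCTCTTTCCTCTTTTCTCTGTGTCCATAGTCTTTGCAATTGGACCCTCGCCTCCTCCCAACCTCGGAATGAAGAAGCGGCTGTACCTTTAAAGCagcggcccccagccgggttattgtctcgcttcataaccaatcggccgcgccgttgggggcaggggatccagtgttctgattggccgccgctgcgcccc

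GC content of these 250-base windows was 65.2% and 70.0% at the Tunar starts, 55.2% at Minpp1, 56.4% at Zkscan17, 72.4% at Cabp7 and 58.0% at Actl6b. Over the RefSeq promoter table, 167 windows overlapped lost peaks alone, and their median GC content was 59.6%, against 66.4% in 3417 windows with a kept peak and 52.4% in all 32851 windows. The ratio of observed to expected CpG had medians of 0.735, 0.844 and 0.374 in the same order. Promoters under lost peaks were thus CpG-rich relative to all promoters and less so than promoters under kept peaks. The GC box, searched as GGGCGG on both strands, was found in 52.1% of windows with lost peaks alone, 66.2% with a kept peak and 32.7% of all windows. It was present in the second Tunar window and in the Cabp7 window and was not found in the other 4 shown. The ETS core CCGGAA was found in 25.7%, 24.5% and 12.03% of the 3 sets, the AP-1 site TGANTCA in 4.19%, 2.60% and 6.75%, and the TATA box TATAAA in 5.99%, 2.96% and 12.4%. The promoter table holds no window for some genes, and the distal lost peaks had no sequence to print.

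Both H3K27ac libraries were of nearly the same depth after filtering, with 19288471 tags in cKO and 19291198 in WT, and inputs of 18301652 and 17876653 tags. The cKO list was nevertheless the longer one, with 24065 peaks over 11558346 bases, against 13006 peaks over 5172484 bases in WT. In cKO 13897 peaks (57.7%) had no WT overlap. The H3K27me3 lists differed more, with 15659 peaks in cKO and 4124 in WT, and the H3K4me3 lists held 28234 and 25145 peaks. With 1 library per genotype and mark, no difference between peak lists could be tested, and the Wilson intervals below cover counting error alone. Arid1a RNA had 110 and 89.2 CPM (counts scaled to library size) in the P21 cKO libraries, against 215 and 205 CPM in the WT libraries, and the gene held no lost peak. Total estimated counts per RNA library were 20089631 to 20332148 (P21) and 17662335 to 19760764 (E16.5). Striatal and choroid plexus markers differed between P21 libraries. The 11 striatal genes summed to 245 and 348 CPM in cKO and 165 and 188 CPM in WT (3 of 11 called higher, 0 lower), and the 10 choroid plexus and ependyma genes to 3647 and 1057 CPM in cKO and 1431 and 1193 CPM in WT (2 higher, 0 lower). Over all 17407 genes tested at P21 2.81% were called higher and 3.91% lower. None of the markers was at 0 in any P21 library. Of these genes 1 striatal and 0 choroid plexus genes had a WT H3K27ac peak, none of them lost, and their part in the RNA results was not tested.

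Lost peaks were short and weak in WT. Their median length was 234 bases, against 342 for kept peaks, and the fragment length set by the caller, the shortest peak length in the list, was 188 bases. Median fold enrichment over input, as the authors' peak caller gave it, was 4.88 for lost and 5.43 for kept peaks, median pileup at the summit 14.8 and 21.3, and median −log10 q 4.71 and 7.61. Absence of a cKO call close to the calling limit (q of 0.01) does not show absence of signal. These values describe the WT side of the rule, so they carry no test.

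Peaks without H3K4me3 were lost more often at every WT signal strength. Among WT peaks without H3K4me3 the share lost was 63.9% (−log10 q under 4), 60.7% (4 to 6), 44.2% (6 to 8), 36.0% (8 to 10) and 20.95% (10 or more). Among WT peaks with H3K4me3 the shares in the same classes were 15.4%, 12.6%, 7.26%, 3.36% and 0.978%. In each class the intervals of the 2 sets did not overlap, and the enhancer-like peaks had the higher share lost. Over all classes 37.3% of lost peaks overlapped WT H3K4me3, against 90.9% of kept peaks.

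**Figure D1:**
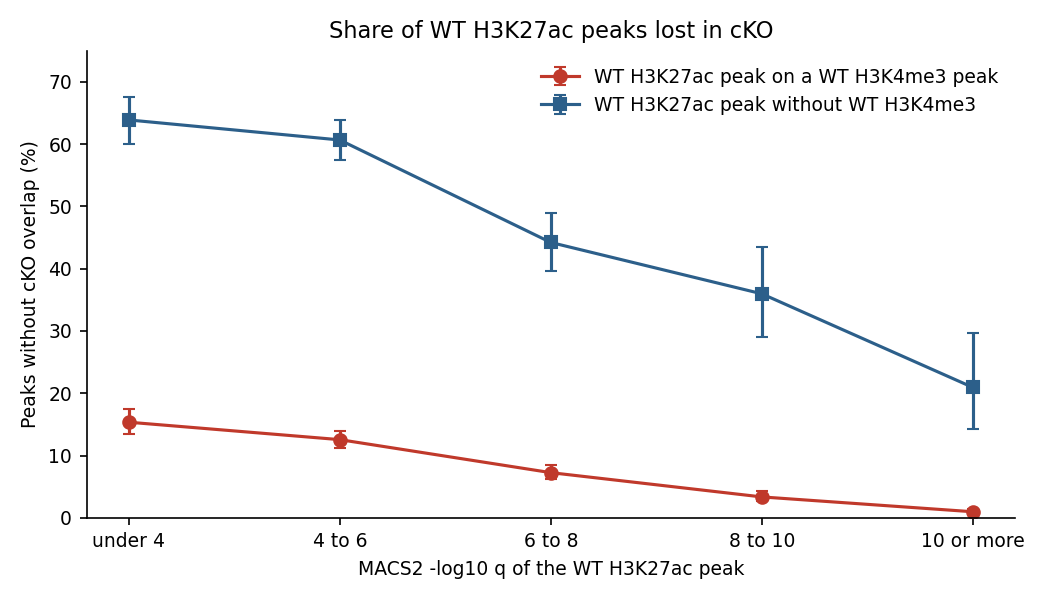
Share of WT H3K27ac peaks with no overlapping cKO H3K27ac peak (y axis, percent) by the −log10 q of the WT peak (x axis), for peaks with (red circles) and without (blue squares) a WT H3K4me3 peak. Bars are Wilson 95% intervals, and in the weakest class 15.4% of peaks with H3K4me3 and 63.9% without it were lost.

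Position followed the same split. A lost peak with H3K4me3 lay a median of 890 bases from the nearest end of a protein-coding gene, and one without it 27476 bases. Kept peaks of the same kinds lay 222 and 21145 bases away. Of lost peaks with H3K4me3 372 (51.6%) lay within 1 kb of such an end, against 43 (3.55%) of those without it, of which 916 (75.7%) lay over 10 kb away. Within protein-coding genes lay 75.3% of lost peaks with H3K4me3 and 68.3% of those without it. Lost peaks were found on every chromosome with WT peaks, from 11.6% of WT peaks on chromosome 7 (106 of 915) to 21.2% on X (31 of 146, interval 15.4% to 28.6%).

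Many lost peaks were near misses of a cKO peak. The nearest cKO H3K27ac peak lay within 1 kb of 940 lost peaks (48.7%), and 566 lost peaks had a kept WT peak within 1 kb. Lost peaks with H3K4me3 were within 1 kb of a cKO peak in 68.1% of cases, at a median distance of 324 bases, and those without it in 37.1% of cases, at a median of 3640 bases. Isolated loss, over 1 kb from any cKO H3K27ac peak, took in 991 lost peaks, 230 with and 761 without H3K4me3, and 665 lay over 10 kb from one. At the boundary of the rule, 3 lost peaks of 212, 255 and 277 bases (chromosomes 17, 18 and 3) directly abutted a cKO peak with 0 bases between them, and 3 kept peaks of 437, 201 and 339 bases (chromosomes 15, 2 and 4) shared 1 base with one. Their −log10 q ranged from 4.78 to 5.86 inside and from 5.25 to 8.42 outside.

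**Figure D2:**
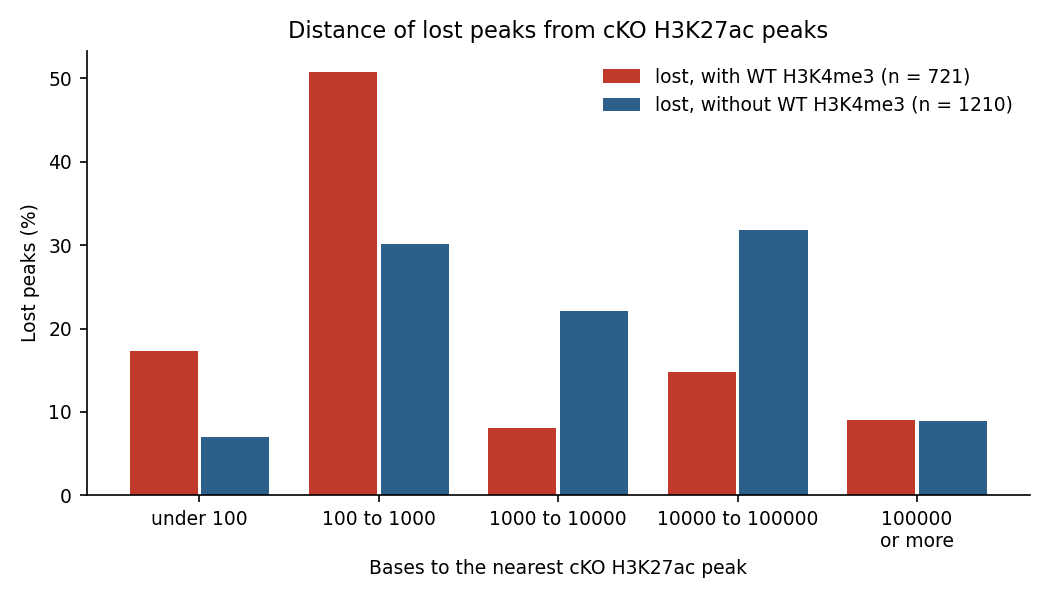
Share of lost peaks (y axis, percent) by the number of bases to the nearest cKO H3K27ac peak (x axis, classes of increasing distance), for the 721 lost peaks with WT H3K4me3 (red) and the 1210 without it (blue). Lost peaks with H3K4me3 were most often 100 to 1000 bases from a cKO peak (50.8%), while 31.8% of those without it lay 10000 to 100000 bases away.

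The promoter mark itself mostly persisted. Of the 721 lost peaks with WT H3K4me3, 656 (91.0%, interval 88.7% to 92.9%) overlapped a cKO H3K4me3 peak, against 99.2% of 10068 kept peaks with WT H3K4me3. In isolated lost peaks with H3K4me3 the share was 200 of 230 (87.0%, interval 82.0% to 90.7%). The median fold enrichment of the strongest H3K4me3 peak was 9.997 in cKO over the 656 lost peaks that overlapped one. In WT it was 11.63 over all 721, on each list's own scale. For kept peaks with WT H3K4me3 it was 14.03 in cKO, over the 9991 that overlapped a cKO H3K4me3 peak, and 14.84 in WT. Among lost peaks without WT H3K4me3, 46 of 1210 (3.80%) had a cKO H3K4me3 peak, against 158 of 1007 kept ones (15.7%), and 1158 (95.7%) held neither H3K4me3 nor H3K27me3 in cKO.

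H3K27me3 was called in cKO at 78 lost peaks, and in WT at 1. Of the 78, 70 were lost peaks with WT H3K4me3, which is 9.71% of that set (interval 7.76% to 12.1%), against 4.53% of kept peaks with WT H3K4me3 (interval 4.14% to 4.95%). The share was 14.8% at the 230 isolated lost peaks with H3K4me3 (interval 10.8% to 19.9%) and 0.661% at lost peaks without it. Over all lost and all kept peaks the shares were 4.04% and 4.20%, since most lost peaks lacked H3K4me3. Within classes of WT strength the shares in lost and kept peaks with H3K4me3 were 8.99% and 6.05% (−log10 q under 4), 10.5% and 5.30% (4 to 6), 11.3% and 4.87% (6 to 8), 8.20% and 4.61% (8 to 10), and 3.03% and 3.35% (10 or more). The intervals did not overlap in the classes from 4 to 6 and from 6 to 8, and overlapped in the other 3. They treat each peak as independent, although neighbouring lost peaks can lie under 1 H3K27me3 peak, as at Prox1. Of the 70 peaks, 65 carried a cKO H3K4me3 peak as well. The part of the longer cKO H3K27me3 list in these shares was not tested.

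**Figure D3:**
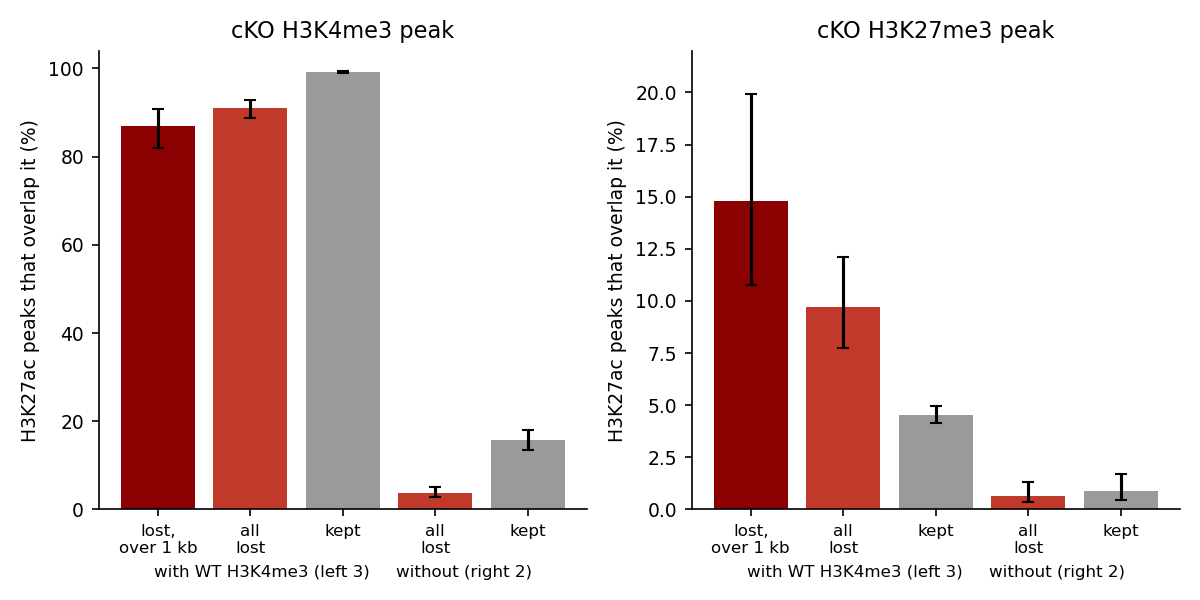
Share of WT H3K27ac peaks that overlap a cKO H3K4me3 peak (left, y axis in percent) or a cKO H3K27me3 peak (right, y axis in percent, other scale), for lost peaks over 1 kb from any cKO H3K27ac peak, all lost peaks and kept peaks, with and without WT H3K4me3. Bars are Wilson 95% intervals, and the H3K27me3 shares with WT H3K4me3 are 14.8%, 9.71% and 4.53%.

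The strongest lost peaks with H3K4me3 sat mostly within 1 kb of a gene end. The highest fold enrichment was 9.54 at Ppil2, a cyclophilin-like gene (chr16:17110924-17111187), 20663 bases from the nearest cKO H3K27ac peak. Next came 8.97 at Mtdh, 8.64 at Minpp1 (95445 bases from a cKO peak), 8.64 at Spred1, which encodes an inhibitor of Ras signalling, 8.39 at Mzt2 and 8.36 in Rtn1, a reticulon gene of the endoplasmic reticulum. All 6 held a cKO H3K4me3 peak, with fold enrichments of 8.42 to 16.3, and 4 of them lay 71 to 219 bases from a cKO H3K27ac peak. None of these 6 genes was called at P21, where Minpp1 had 44.4 and 49.7 CPM in cKO and 46.2 and 45.4 CPM in WT, and Ppil2 64.7 and 65.0 CPM in cKO and 70.0 and 66.8 CPM in WT. The groups overlapped for Minpp1 and did not for Ppil2, whose log2 change was -0.08 (SE 0.10).

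The strongest lost peaks without H3K4me3 lay inside Sdccag8 (fold enrichment 8.07), Celf1, which encodes an RNA-binding splicing regulator (7.98), and Tom1l2 (7.75), and in intergenic sequence nearest to 3 model genes (8.06, 7.81 and 7.65). None of the 6 held a cKO H3K4me3 or H3K27me3 peak. The intergenic peak at chr9:43482549-43482890 was 242708 bases from the nearest cKO H3K27ac peak, and that in Sdccag8 was 70 bases from one. RNA of Celf1, at 210 and 185 CPM in cKO and 231 and 251 CPM in WT, did not pass the test, nor did that of Sdccag8 and Tom1l2.

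Genes with a lost peak within 1 kb of either end were lower at P21 more often than tested genes at large. Of 588 such genes 513 passed the filter on low counts, and 39 (7.60%) were lower and 10 (1.95%) higher in cKO by edgeR's quasi-likelihood test at an adjusted p under 0.05. Over all 17407 genes tested 3.91% were lower and 2.81% higher. A lost peak can count for more than 1 gene, so the 513 genes are not all independent. Many gamma-protocadherin genes, which share exons, were each counted with 1 lost peak at an end. Of these Pcdhga5 was among the lower genes and Pcdhga3 among the higher. Groups that do not overlap were common at this sample size, with all cKO libraries below all WT libraries for 27.9% of genes tested and above them for 28.2%. The median log2 change, cKO over WT, was -0.06 for the 513 genes and 0.01 for all genes. Of 6513 genes with kept peaks alone at their ends 3.22% were lower and 1.80% higher. Where no kept peak remained at an end 22 of 241 genes (9.13%) were lower and 4 higher, and where the lost peak was isolated 14 of 140 were lower and 1 higher. Without WT replicate 2 the share was no higher than that of all genes (8 of 517 genes lower, 1.55%, against 1.60% of all genes), and without WT replicate 1 it was 16 genes (3.09%), against 2.15%. Without cKO replicate 1 80 (15.5%) were lower, against 8.99% of all genes. With the replicate number, which at P21 coincided with sex by Xist counts, as a term, 25 (4.87%) were lower, against 2.88% of all genes. DESeq2 called 54 of 509 lower (10.6%), against 4.96% of all genes.

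Among the lower genes, Kcnc4, which encodes the Kv3.4 potassium channel, had 31.6 and 29.0 CPM in cKO and 60.5 and 60.5 CPM in WT. Its level differed by -0.999 on the log2 scale (SE 0.11, edgeR adjusted p = 0.00371), with both cKO libraries below both WT libraries. The gene held 3 lost peaks and no kept one, and the 2 at its end (chr3:107459303-107459725 and chr3:107459788-107460133) lay 46509 and 46101 bases from the nearest cKO H3K27ac peak and on cKO H3K4me3 and H3K27me3 peaks. Tspan18, a tetraspanin gene, had 22.2 and 19.1 CPM in cKO and 42.5 and 41.1 CPM in WT (log2 change -1.02, SE 0.13, edgeR adjusted p = 0.00634). Its lost promoter peak was 128159 bases from a cKO H3K27ac peak and kept H3K4me3 without H3K27me3. Lman2l, which encodes a cargo lectin of the early secretory pathway, had 32.1 and 26.5 CPM in cKO and 61.4 and 56.3 CPM in WT (log2 change -1.003, SE 0.13, edgeR adjusted p = 0.00694). Its lost peak lay 25838 bases from a cKO H3K27ac peak. Tunar, whose promoter sequences are given above, had 15.2 and 13.9 CPM in cKO and 27.9 and 31.2 CPM in WT (log2 change -1.02, SE 0.13, edgeR adjusted p = 0.00704). D16Ertd472e held a lost peak at an end, 223 bases from a cKO H3K27ac peak. Its RNA had 6.75 and 5.07 CPM in cKO and 14.5 and 15.6 CPM in WT (log2 change -1.35, SE 0.19, edgeR adjusted p = 0.0095). These 5 genes remained called without any 1 of the 4 libraries.

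Egr4, an immediate early zinc finger gene, had 25.7 and 28.6 CPM in cKO and 46.3 and 46.0 CPM in WT (log2 change -0.76, SE 0.11, edgeR adjusted p = 0.0117). Trpc6, a calcium-permeable channel gene, had 5.25 and 4.41 CPM in cKO and 11.1 and 12.4 CPM in WT (log2 change -1.28, SE 0.19, edgeR adjusted p = 0.0117). Marcks, which encodes an actin-binding substrate of protein kinase C, had 86.7 and 88.1 CPM in cKO and 136 and 140 CPM in WT (log2 change -0.65, SE 0.10, edgeR adjusted p = 0.012). In all 3 genes both cKO libraries lay below both WT libraries, and without WT replicate 2 none of the 3 was called. The lost peak at Trpc6 was 357160 bases from a cKO H3K27ac peak, while those at Egr4 and Marcks were 69 and 288 bases from one.

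Loss of the call also occurred at genes with more RNA in cKO. Armcx5, an armadillo-repeat gene on X, had 58.2 and 69.8 CPM in cKO and 24.4 and 25.5 CPM in WT (log2 change 1.36, SE 0.12, edgeR adjusted p = 0.00231), and it remained called without any 1 library. Zkscan17 had 18.03 and 19.66 CPM in cKO and 11.5 and 9.83 CPM in WT (log2 change 0.82, SE 0.15, edgeR adjusted p = 0.0238). The zinc finger gene Zfp956, the noncoding RNA gene Lncppara and Rad9b, of the DNA-damage checkpoint clamp family, were higher by 0.65, 0.83 and 0.91 on the log2 scale (edgeR adjusted p between 0.0322 and 0.0459). Without WT replicate 2 none of Zkscan17, Zfp956, Lncppara and Rad9b was called. The lost peaks at Armcx5 and Zkscan17 lay 298 and 301 bases from a cKO H3K27ac peak and on cKO H3K4me3. Those at Lncppara, Rad9b and Zfp956 lay 1, 323 and 32264 bases from a cKO H3K27ac peak, and that at Lncppara had no H3K4me3 peak. Pcdhga3 was higher too, while Pcdhga5 of the same cluster was lower (log2 change -0.73, SE 0.14, edgeR adjusted p = 0.0259). Both lie in the gamma-protocadherin cluster, whose genes share exons, so their counts are uncertain.

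**Figure D4:**
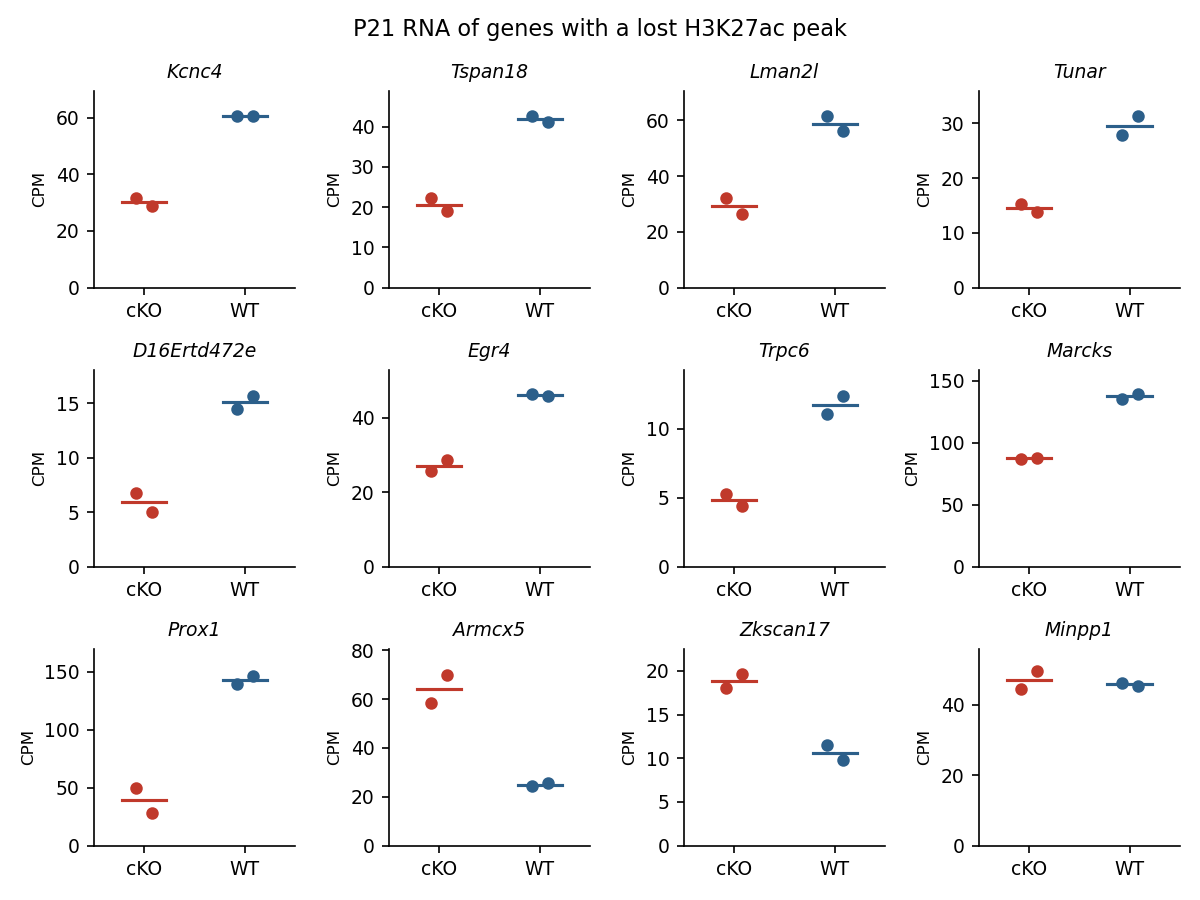
RNA level in CPM (y axis, from 0, own scale per gene) in the 2 cKO (red) and 2 WT (blue) libraries at P21 for 12 genes with a lost H3K27ac peak, each point 1 library and each line a group mean. The first 9 genes were lower in cKO, Armcx5 and Zkscan17 were higher, and Minpp1 did not pass the test.

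Where a lost peak at a gene's end carried H3K27me3 in cKO, 10 of 38 tested genes (26.3%) were lower, 0 were higher, and the median log2 change was -0.49. Over all genes tested in the same fit 3.91% were lower and 2.81% higher. This subset was chosen after the data were seen. Genes with a kept peak on cKO H3K27me3 at an end and no lost peak there were lower in 31 of 263 cases (11.8%) and higher in 7, with a median of -0.07. The first count was 9 with the replicate number as a term, where 2.88% of all genes were lower. A fit of all 10 libraries called 2, where 1.84% of all genes were lower. Leaving out 1 library moved both the first count and the share of all genes. Counting gene bodies too, 12 of 65 genes (18.5%) were lower and 0 higher: Kcnc4, Tunar, Egr4, Trpc6, Bcl11b, Prox1, Kif26b, Mfge8, Kirrel2, Sept5, Bhlhe22 and Tmem108, the last 6 named after their values were seen. Bcl11b, a zinc finger transcription factor of hippocampal neurons that is also a BAF subunit, had 98.5 and 121 CPM in cKO and 180 and 192 CPM in WT (log2 change -0.76, SE 0.13, edgeR adjusted p = 0.0162, not called without WT replicate 2). Kif26b, a kinesin-family gene with 3 lost peaks in its body and no kept one, had 11.5 and 6.57 CPM in cKO and 42.0 and 43.4 CPM in WT (log2 change -2.24, SE 0.25). Bhlhe22, a neuronal basic helix-loop-helix gene, had 91.9 and 93.6 CPM in cKO and 141 and 122 CPM in WT. In these genes both cKO libraries lay below both WT libraries.

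Several genes with strong cKO H3K27me3 over a lost peak did not pass the RNA test. The highest H3K27me3 fold enrichments over a lost peak were 13.6 in intergenic sequence nearest to Cbx8, which encodes a Polycomb protein, 13.2 at Nr2e1, the neural stem cell nuclear receptor TLX and the 1 lost peak with H3K27me3 in WT too (fold enrichment 7.55), 12.6 at Egr4, 10.8 at Cabp7 and 10.2 in Ntf3, the neurotrophin-3 gene. Cabp7 had 266 and 272 CPM in cKO and 265 and 223 CPM in WT, and Nr2e1 had 10.3 and 10.9 CPM in cKO and 16.5 and 13.4 CPM in WT. Neither passed the test (edgeR adjusted p of 0.495 and 0.117), nor did Cbx8 and Ntf3. The lost peaks nearest to Cbx8, at Nr2e1 and at Cabp7 lay 224, 362 and 354 bases from a cKO H3K27ac peak. That in Ntf3 lay 421314 bases from one. Nr2e1 also held 3 cKO H3K27ac peaks with no WT overlap, and Cabp7 held 2 kept peaks. The strongest lost peaks with both marks in cKO lay at B830017H08Rik (fold enrichment of H3K27ac in WT 6.51), in Zfhx4 (6.21), in Tafa2 (6.08, 68081 bases from a cKO H3K27ac peak) and at Tunar (6.07). The peak at B830017H08Rik lay 39 bases from a cKO H3K27ac peak, and those in Zfhx4 and at Tunar lay 355849 and 117509 bases from one. Of these 4 genes Tunar alone was called at P21.

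Prox1, the transcription factor that specifies dentate granule neurons, held 3 lost peaks and 1 kept one. From its start in the direction of transcription, lost peaks lay at 0.118 to 0.469 kb, 0.534 to 0.972 kb and 9.892 to 10.135 kb, and the kept peak at 1.18 to 1.616 kb. A further lost peak, 335 bases long, lay before the start (-4.35 to -4.02 kb), inside the antisense gene Prox1os. The proximal lost peaks lay 694 and 191 bases from a cKO H3K27ac peak, the one at 9.892 kb 8197 bases and the upstream one 5183 bases. At the kept peak the cKO list held H3K27ac peaks at 1.164 to 1.418 kb and 1.503 to 1.694 kb. Their fold enrichments were 5.95 and 4.3, against 4.88 for the kept peak in WT, on each list's own scale. In cKO an H3K27me3 peak of 4750 bases ran across the start and both proximal lost peaks, and another of 1080 bases covered the upstream one, while one more (1.097 to 2.252 kb, fold enrichment 9.32) covered the kept peak. No WT H3K27me3 peak was called within the mapped window. The main H3K4me3 peak at the start was 2216 bases long in cKO (fold enrichment 7.91) and 3406 bases in WT (15.2). Prox1 RNA had 50.1 and 28.5 CPM in cKO and 139 and 146 CPM in WT at P21 (log2 change -1.86, SE 0.28, edgeR adjusted p = 0.0315), both cKO libraries below both WT libraries. It was not called without either WT library (edgeR adjusted p of up to 0.191, range over the 4 fits 2.3e-07 to 0.191). Whether counting used strand is not given, so reads of Prox1 and Prox1os cannot be told apart where they overlap, and Prox1os was at 1.81 to 2.41 CPM in cKO and 4.21 to 4.46 CPM in WT.

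Lost peaks fell in other dentate granule genes too. Among all genes tested at P21, 1213 held a lost peak in the gene or within 1 kb, and 6924 kept peaks alone. Over all 17407 genes tested 3.91% were lower and 2.81% higher. Of 13 genes in a dentate granule list 6 had a WT H3K27ac peak in the gene or within 1 kb, and 5 of these had a lost one: Prox1, Trpc6, Stxbp6, Sema5a and Pdzd2. Prox1, Trpc6 and Stxbp6 were lower at P21, and Stxbp6, which encodes the SNARE-binding protein amisyn, had 39.0 and 26.8 CPM in cKO and 99.6 and 105 CPM in WT (log2 change -1.64, SE 0.18, edgeR adjusted p = 0.00507), its lost peak 60773 bases from a cKO peak. Of the whole list 8 of 13 genes were lower and 0 higher, and its summed level was 492 and 567 CPM in cKO and 888.5 and 976 CPM in WT. Genes of the CA pyramidal list moved the other way (5 of 15 higher, 1 lower, summed 1367 and 1746 CPM in cKO and 1205 and 1195 CPM in WT). In bulk tissue fewer granule neurons and less RNA per neuron cannot be told apart. Oligodendrocyte genes also fell (13 of 18 lower, summed 4589 and 4961 CPM in cKO and 7819 and 8413 CPM in WT), as did microglial genes (8 of 14 lower, summed 232.5 and 239 CPM in cKO and 351.5 and 388 CPM in WT), and no gene of either list held a lost peak. Only 1 of the 18 oligodendrocyte genes and 0 of the 14 microglial genes had a WT H3K27ac peak to lose. The part of these cell types in the results was not tested.

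Lost peaks were also found in synaptic and guidance genes. In these lists 23 of 26 and 19 of 33 genes had a WT H3K27ac peak in the gene or within 1 kb. Over all 17407 genes tested at P21 3.91% were lower and 2.81% higher. The 1213 with a lost peak in the gene or within 1 kb had a median length of 60868 bases, and 8.33% of them were lower and 1.65% higher. The 6924 with kept peaks alone had a median length of 24843 bases. Of 26 glutamatergic synapse genes 3 were lower and 0 higher, 10 held 27 lost peaks, and 1 of the 10 was lower: Nrgn, which encodes the calmodulin-binding protein neurogranin, had 925 and 1057 CPM in cKO and 1395 and 1426 CPM in WT (log2 change -0.51, SE 0.11, edgeR adjusted p = 0.0402). Grin2b, an NMDA receptor subunit gene, had 323 and 323 CPM in cKO and 414 and 398 CPM in WT and did not pass the test (edgeR adjusted p = 0.0925). The lost peaks of Nrgn and Grin2b lay 175 and 56 bases from a cKO H3K27ac peak. Beside 1 lost peak each, these genes held 1 and 12 cKO peaks with no WT overlap. Of 33 axon guidance genes 7 were lower and 0 higher, 8 held 12 lost peaks, and 2 of the 8 were lower. Ephb2, an ephrin receptor gene, had 20.5 and 20.5 CPM in cKO and 37.8 and 39.3 CPM in WT (log2 change -0.91, SE 0.11, edgeR adjusted p = 0.00656), and Efnb3, an ephrin ligand gene, differed by -0.47 (SE 0.11, edgeR adjusted p = 0.0453, not called without either WT library). Epha4 held a lost peak and did not pass the test. The lost peaks of Ephb2, Efnb3 and Epha4 lay 8058, 2605 and 2359 bases from a cKO H3K27ac peak. These genes held 3, 2 and 2 cKO peaks with no WT overlap. Both immediate early genes with a lost peak, Egr4 and Nr4a3, were lower, and of the 15 genes in the list 10 were lower and 1 higher. A WT H3K27ac peak was present in 10 of the 15. The lost peak of Nr4a3 lay 43 bases from a cKO H3K27ac peak, and the gene held 4 cKO peaks with no WT overlap. Nr4a3 (edgeR adjusted p = 0.0471) was not called without WT replicate 1, WT replicate 2 or cKO replicate 2. Genes with lost peaks in the lists of CA pyramidal neurons (Grik4, 1 of 15 genes), astrocytes (Gfap and Slc1a2, 2 of 12) and Polycomb genes (Kdm6b, 1 of 20) did not pass the test. In these lists 4, 4 and 15 genes had a WT H3K27ac peak. The lost peaks of Grik4, Gfap, Slc1a2 and Kdm6b lay 49356, 390, 355 and 114 bases from a cKO H3K27ac peak. These genes held 4, 0, 6 and 4 cKO peaks with no WT overlap. Pecam1, an endothelial adhesion gene, was higher (28.8 and 28.5 CPM in cKO and 18.5 and 17.8 CPM in WT, log2 change 0.66, SE 0.12, edgeR adjusted p = 0.0216), and its gene held a lost peak and no kept one. Nrgn and Pecam1 were not called without either WT library.

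Among chromatin genes, 7 of 28 BAF subunit genes held 13 lost peaks, and 25 of the 28 had a WT H3K27ac peak in the gene or within 1 kb. Actl6b had 46.6 and 48.9 CPM in cKO and 66.3 and 63.7 CPM in WT (log2 change -0.45, SE 0.10, edgeR adjusted p = 0.0421), its lost promoter peak 95 bases from a cKO H3K27ac peak. Bcl11b was the other subunit gene with lost peaks that was lower, and Smarca2, an ATPase of the complex, did not pass the test. The lost peaks of Bcl11b lay 1573 and 386 bases from a cKO H3K27ac peak, and the gene held 8 cKO peaks with no WT overlap. Of the 28 subunit genes 4 were lower and 0 higher, where 3.91% and 2.81% of all genes tested were. In the list of histone acetylation genes 4 of 22 held a lost peak, and 21 had a WT H3K27ac peak. Of these 22 genes 1 was lower and 0 were higher. Hdac1, a histone deacetylase gene, had 22.6 and 18.1 CPM in cKO and 32.5 and 30.1 CPM in WT (log2 change -0.62, SE 0.14, edgeR adjusted p = 0.0442). Hdac11 and Kat6b did not pass the test. The lost peaks of Smarca2, Hdac1, Hdac11 and Kat6b lay 21, 237, 203 and 115 bases from a cKO H3K27ac peak. Neither Actl6b nor Hdac1 was called without WT replicate 1 or without WT replicate 2, nor was Hdac1 without cKO replicate 2. No gene of the interneuron, neural stem cell or meningeal fibroblast lists held a lost peak, and 1 of 17, 6 of 16 and 0 of 7 of these genes had a WT H3K27ac peak to lose.

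Many genes with lost peaks in their bodies alone were long. Of 700 tested genes with a lost peak in the body and none at an end 62 (8.86%) were lower and 10 (1.43%) higher, with a median log2 change of -0.11. Their median length was 100142 bases, against 24843 for genes with kept peaks alone. Among genes of at least 50 kb 8.17% of 661 with a lost peak were lower, against 4.54% of 2005 with kept peaks alone and 5.13% of all 4463, and 1.51%, 1.45% and 2.69% were higher. Over all genes tested 3.91% were lower and 2.81% higher in the main fit. The subset with lost peaks in bodies alone was chosen after the data were seen. The body count was 32 with the replicate number as a term, where 2.88% of all genes were lower. In a fit of all 10 libraries it was 21, where 1.84% of all genes were lower. Leaving out 1 library moved both the body count and the share of all genes. Tcf4, a basic helix-loop-helix gene of neurons, held the most lost peaks, 13, beside 41 kept peaks and 70 cKO peaks with no WT overlap, and had 425 and 446 CPM in cKO and 440 and 484 CPM in WT. Btbd9 held 10 lost, 3 kept and 5 cKO-only peaks, Zbtb20, a zinc finger gene of CA1 identity, 9, 23 and 37, and Anks1b 8, 9 and 14. None of these 4 genes was called at P21 (edgeR adjusted p between 0.0685 and 0.833). Lost and newly called peaks thus occurred within the same long genes.

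At E16.5, before the age at which the marks were mapped, no gene with a lost peak at an end was called. Of 505 such genes 0 passed edgeR at an adjusted p under 0.05, where 0.124% of all 16958 genes did. At an unadjusted p under 0.05 41 were lower and 60 higher, where 11.5% and 9.13% of all genes were. DESeq2 called 13 of 493 lower and 17 higher, where 4.50% and 2.22% of 15865 genes were. Counting lost peaks in gene bodies too, edgeR called 2 of 1201 genes lower (0.167%) and 0 higher. Some of the P21 genes had like differences at E16.5 without passing the test. At this age 15.3% of genes had all cKO libraries below all WT libraries and 14.0% above. Prox1 had 12.4, 33.6 and 26.6 CPM in cKO and 71.8, 55.1 and 64.4 CPM in WT at E16.5 (log2 change -1.40, SE 0.35, edgeR adjusted p = 0.154), all cKO libraries below all WT libraries. Tspan18 had 34.5, 87.9 and 85.0 CPM in cKO and 153, 149 and 137 CPM in WT (log2 change -1.08, SE 0.34, edgeR adjusted p = 0.188), again without overlap. In Prox1 and Tspan18 the lowest value was that of cKO replicate 1, the first one listed. The part of that library in the size of these changes was not tested.

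The difference between the cKO effects at the 2 ages was tested in 1 fit of all 10 libraries. Of the 517 tested genes with a lost peak at an end, 10 passed at an adjusted p under 0.05, where 1.16% of 18979 genes did. With the replicate number as a term 0 passed, Lman2l and Armcx5 included. Lman2l had 38.6, 39.2 and 37.4 CPM in cKO and 43.5, 41.3 and 45.5 CPM in WT at E16.5, and its cKO effect at P21 was lower by a log2 of -0.86 (SE 0.13, edgeR adjusted p = 0.0301). Armcx5 had 9.53, 11.99 and 10.79 CPM in cKO and 10.9, 10.3 and 11.5 CPM in WT at E16.5, a difference of effects of 1.34 (SE 0.18, edgeR adjusted p = 0.0255). For Prox1 and Tspan18 the differences of effects were -0.50 (SE 0.53) and 0.02 (SE 0.48) and did not pass (edgeR adjusted p of 0.634 and 0.994).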

How the data were processed

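ChIP-seq peaks were called by the authors on single libraries with MACS against the input of the same genotype, version 2.2.7.1 per the file headers and 2.2.5 per the submitters' processing notes, as narrow peaks at a q-value limit of 0.01. Reads were aligned with Bowtie2 2.3.5.1 to GRCm38, per the submitters' processing notes. Each deposited peak has, per the file headers, a summit pileup (signal), a ratio of enrichment over input (fold), and −log10 of its p-value and q-value. The authors deposited estimated counts per gene (Salmon 1.0.0, per the submitters' processing notes; the summing to genes and the use of strand are not given in the sources used here). They also deposited tables of log2 changes and p-values from DESeq2 1.26.0, per the same notes.

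Overlaps needed 1 bp and were checked against bedtools 2.31.1. Gene ends came from a RefSeq table (GRCm38.p6, without strand), which gave coordinates for 91.6% of genes tested at P21. Estimated counts were rounded and tested per age with edgeR 4.0.16 (filterByExpr, TMM, robust quasi-likelihood, Benjamini-Hochberg, threshold 0.05), checked on simulated counts. CPM use TMM-scaled totals, and standard errors (SE) derive from the F statistic. Replicates are biological per the series design. Wilson intervals are at 95%.

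The regions, gene lists and naming rules were chosen with earlier results of these data known. Named were Arid1a, the 6 strongest lost peaks with and without H3K4me3, up to 8 lower and 8 higher genes by P21 p-value with groups apart, at least 5 CPM and no model name, up to 3 genes per list, up to 8 lost peaks by cKO H3K27me3 and 4 with both marks, and up to 4 genes with the most lost peaks. Alternatives covered overlap, thresholds, scaling, filter, tool (DESeq2 1.42.0) and left-out libraries. The input libraries entered through the peak lists.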

Additional observations from a re-analysis of the deposited data

Results flagged for a closer look

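For 5 named genes with a lost peak the cKO effect at P21 differed from that at E16.5 by the test of the difference itself, in log2 units of the P21 effect minus the E16.5 effect. The differences were -0.86 for Lman2l, -1.35 for D16Ertd472e (edgeR adjusted p = 0.0337), -0.67 for Marcks (edgeR adjusted p = 0.0301), 1.34 for Armcx5 and -0.88 for Ephb2 (edgeR adjusted p = 0.0255). With the replicate number, which goes with sex by Xist counts at P21, as a term in the fit, 0 genes with a lost peak at an end passed, and Ephb2 did not either. At E16.5 the log2 changes of these genes lay between -0.18 and -0.01, and none passed the test. Marcks had 802, 816 and 836 CPM in cKO and 792, 842 and 860 CPM in WT at E16.5, with overlapping groups.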

How the results depend on the processing

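The number of lost peaks was 991 when a cKO peak within 1 kb also kept a peak, 1231 after merging WT peaks within 1 kb, 823 and 55 among WT peaks with −log10 q of at least 5 and 10, and 3698 against a cKO list cut to the WT list's length. The share with WT H3K4me3 was 44.4% when 50% cover was needed to keep a peak, 23.2% for peaks over 1 kb from cKO peaks, 44.4% and 60% for WT peaks with −log10 q of at least 5 and 10, and 43.0% with the mark within 1 kb. The share with cKO H3K4me3 was 44.1%, 21.7%, 42.5%, 60% and 44.4% in the same order, and 33.9% when the mark had to cover 50%. The share with cKO H3K27me3 was 5.35% and 1.82% for the stronger WT peaks, 5.80% with the mark within 1 kb and 3.21% at 50% cover.

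Genes with a lost peak at an end that were lower at P21 numbered 66 without a filter, 20 in a fit of all 10 libraries, 101 counting gene bodies, 81 within 10 kb, 22 without a kept peak, 20 for lost peaks with −log10 q of at least 5, 14 for isolated peaks and 8 to 80 leaving out 1 library. Higher genes numbered 16, 6, 20, 19, 4, 4 and 1 in the same order and 3 to 32 leaving out 1 library. The H3K27me3 subset, chosen after seeing the data like the next one, had 2 lower genes in the fit of all 10 libraries and 3 to 17 leaving out 1. The subset with lost peaks in bodies alone had 39 by upper-quartile scaling, which moved the median log2 change of all genes from 0.009 to 0.059, 120 without a filter, 99 by DESeq2, 21 with all 10 libraries and 17 to 148 leaving out 1. At E16.5 2 genes were called without a filter and 30 by DESeq2, and 0 in each fit that left out 1 library. The difference between ages gave 18 without a filter and 53 by DESeq2. The DESeq2 calls were 44 lower and 9 higher of 504 genes, where 4.55% and 2.54% of 16359 genes were. Leaving out 1 of 2 libraries assumes that the lone one varies like the other group. Of all genes at P21 3.91% were lower in the main fit, 3.87% without a filter and 2.98% by upper-quartile scaling. DESeq2 called 4.96% of all genes lower, and the fit of all 10 libraries 1.84%. Leaving out 1 library moved the share of all genes as well.

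Deviations of same-numbered libraries were correlated at 0.0198 at P21 and at -0.228, -0.0208 and -0.492 at E16.5, and no label says what a number marks. Xist had 21 and 3572 counts in P21 cKO replicates 1 and 2, and 37 and 4914 in the WT ones, so a number goes with sex there. With a replicate block the P21 count of lower genes was 25, that of the body subset 32, and the difference between ages gave 0. Of 25 named genes called at P21, 9 remained called without each library in turn and 16 did not. The direction reversed, never past the threshold, for Anks1b by upper-quartile scaling (0.0013) and, leaving out 1 library each, for Anks1b (-0.139 to 0.0356), Gfap (-0.299 to 0.0426), Minpp1 (-0.0488 to 0.118) and Tom1l2 (-0.0203 to 0.255). With 1 ChIP library per genotype, no peak difference has a replicate check.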
